A study of Homo sapiens with 6 samples.

Results

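MIR155HG, MIR17HG and PVT1, 3 genes whose long transcripts carry microRNAs, and MALAT1, NEAT1 and NORAD, 3 long noncoding RNAs that are abundant in many cells, were taken by symbol from the deposited expression table. They are 6 of its 29571 rows and 6 of its 6798 rows typed as long noncoding RNA. The cells were DB, an established line of human diffuse large B-cell lymphoma, in a group labelled DB_ZHX2 (ZHX2 cells) and a group labelled DB_ZHX2_Mut4 (Mut4 cells), with 3 samples labelled in each and no treatment or time given. ZHX2 is a zinc-finger and homeobox protein of the nucleus; what Mut4 alters, how either form was introduced and whether the cells' own ZHX2 was kept are not given in the sources used here. The design text names a search for pathways. Levels are FPKM, fragments per kilobase of transcript scaled to the fragments mapped, from poly(A)-selected RNA, and no other group was analysed here.

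Within each group the 3 columns were the same numbers times a constant. In Mut4 cells the constants were 1.05 and 1.21 relative to replicate 1, and in ZHX2 cells 1.33 and 0.897. Each group was therefore read as 1 profile (n = 1), its level as the mean of its 3 columns, and none of the differences below has a replicate check or a test. Differences are log2(FPKM + 1) in Mut4 minus ZHX2 cells, which understates the change of low genes, and a row entered the counts when at least 3 of the 6 columns reached 1 FPKM. All 8 B cell markers passed that filter, with summed levels of 680.0 FPKM in Mut4 cells and of 627 FPKM in ZHX2 cells. Of the T and NK cell markers 1 of 6 listed rows passed (NKG7; summed 4.17 and 3.24 FPKM, CD3G and GNLY at 0), of the myeloid markers 2 of 7 (LYZ and ELANE; 10.9 and 12.9 FPKM, FCGR3A at 0), and of the erythroid and fibroblast markers 0 of 4 (0.618 and 1.58 FPKM). In a bulk profile, fewer cells with a transcript and less of it per cell cannot be told apart.

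A microRNA begins as a hairpin inside a longer transcript, is cut out by DROSHA and DICER1, and guides an Argonaute protein to messenger RNAs whose 3' untranslated region (UTR) pairs with its seed, bases 2 to 8. MIR155HG, first described as the B-cell integration cluster, gives miR-155, which germinal centre B cells need and many B-cell lymphomas hold at high level. MIR17HG gives the cluster from miR-17 to miR-92a, amplified in some diffuse large B-cell lymphomas and activated by MYC. PVT1 lies beside MYC and is a frequent breakpoint in B-cell cancers. MALAT1 and NEAT1 are neighbours that stay in the nucleus, MALAT1 in speckles and NEAT1 as the scaffold of paraspeckles, while NORAD is mostly cytoplasmic and binds the RNA-binding protein PUM2.

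The mature microRNAs that the hosts encode are shown first, since their seeds (in capitals) define the target sets used further on. Sequences are from RefSeq on GRCh38.p14, where all 7 arms looked up were found, and all 7 lie on the plus strand. MIR155HG carries 1 guide arm, at chr21:25573983-25574006.
hsa-miR-155-5p: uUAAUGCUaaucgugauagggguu
In MIR17HG, 2 arms share the seed AAAGUGC, at chr13:91350618-91350640 and chr13:91351072-91351094.
hsa-miR-17-5p: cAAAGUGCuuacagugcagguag
hsa-miR-20a-5p: uAAAGUGCuuauagugcagguag
The seed of miR-18a, at chr13:91350756-91350778, is AAGGUGC.
hsa-miR-18a-5p: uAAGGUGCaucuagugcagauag
A pair of arms with the seed GUGCAAA lies at chr13:91350939-91350961 and chr13:91351245-91351267.
hsa-miR-19a-3p: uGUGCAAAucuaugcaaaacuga
hsa-miR-19b-3p: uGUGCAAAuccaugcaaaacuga
The last arm, at chr13:91351361-91351382, has the seed AUUGCAC.
hsa-miR-92a-3p: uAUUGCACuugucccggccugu

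Promoters of 3 of the genes are shown because ZHX proteins were described as partners of NF-YA, a subunit of the factor that binds CCAAT boxes. Each runs from 250 bases before the RefSeq start to 50 after it, on the plus strand, and capitals mark the CCAAT, AP-1 and TATA matches. RefSeq starts differ from those of the gene spans given further on. The window shown for MIR155HG lies mostly, and that for MALAT1 wholly, inside those spans. The MIR17HG promoter, chr13:91347437-91347736, holds a CCAAT box read on the other strand (ATTGG, at position -101 from the start).
MIR17HG promoter: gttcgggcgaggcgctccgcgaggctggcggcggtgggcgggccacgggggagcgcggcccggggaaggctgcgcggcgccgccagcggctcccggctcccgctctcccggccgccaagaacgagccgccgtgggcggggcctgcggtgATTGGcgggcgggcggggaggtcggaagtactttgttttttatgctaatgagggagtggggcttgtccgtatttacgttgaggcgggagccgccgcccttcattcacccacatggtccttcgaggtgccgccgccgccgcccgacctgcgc
For MIR155HG, chr21:25561895-25562194 holds an AP-1 motif (TGAGTCA, at -60) and a TATA box (TATAAA, at -44).
MIR155HG promoter: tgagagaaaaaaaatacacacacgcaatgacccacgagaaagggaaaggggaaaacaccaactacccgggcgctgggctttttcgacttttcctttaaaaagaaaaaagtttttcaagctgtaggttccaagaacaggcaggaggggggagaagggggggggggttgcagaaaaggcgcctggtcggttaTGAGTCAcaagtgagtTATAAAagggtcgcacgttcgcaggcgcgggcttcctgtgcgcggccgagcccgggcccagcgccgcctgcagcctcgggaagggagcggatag
The downstream of the 2 MALAT1 promoters listed, chr11:65498795-65499094, holds a TATA box at -30.
MALAT1 promoter: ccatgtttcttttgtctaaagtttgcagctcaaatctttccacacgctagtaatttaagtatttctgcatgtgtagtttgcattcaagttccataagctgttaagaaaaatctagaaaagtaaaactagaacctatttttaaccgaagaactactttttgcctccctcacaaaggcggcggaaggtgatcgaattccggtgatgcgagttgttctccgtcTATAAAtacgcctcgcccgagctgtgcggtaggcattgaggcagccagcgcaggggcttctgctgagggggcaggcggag
On either strand, CCAAT occurred in 34.6% of 35116 RefSeq promoters of this length, TGANTCA in 7.71% and TATAAA in 11.5%. CCAAT was not found in these windows of MIR155HG, MALAT1 or NORAD. No promoter window of NEAT1 or PVT1 was searched. The NORAD window holds the E-box CACGTG at -138, a motif of 7.26% of promoters. The GC box GGGCGG, found in 45.0% of promoters, matched 6 times in the MIR17HG window and 5 times in the upstream MALAT1 window. Neither the E-box nor the E2F motif TTTNGCGC, present in 1.79% of promoters, was found in the MIR17HG window. A match describes the letters of a window and not a bound site.

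NORAD is shown by its Pumilio motifs, TGTANATA, which PUM2 recognises. The 5339-base transcript of GENCODE v29, transcribed from the minus strand of chromosome 20, holds 15 matches, or 2.81 per kb. Of these, 10 read TGTATATA, 4 TGTAAATA and 1 TGTACATA. Sites 1, 3 and 5 from the 5' end, one of each kind with 8 bases on both sides, lie at chr20:36050185-36050208, chr20:36049705-36049728 and chr20:36049495-36049518 on GRCh38.
NORAD site 1: aaggcctgTGTATATAatatgaaa
NORAD site 3: tcacatttTGTAAATAcctttttg
NORAD site 5: gtatatagTGTACATAaaggacag
Among 9013 transcripts of at least 5 kb, 5, NORAD included, held 15 or more and the median was 1. Among the 1195 noncoding transcripts of that length, 3 did, again with NORAD (0.251%), and the median was 0. The NEAT1 transcript had 6 matches in 22743 bases and the retained-intron transcript of MIR17HG 2 in 2845, while the transcripts of MALAT1, MIR155HG and PVT1 examined had 0.

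All 6 genes passed the filter in both groups. In ZHX2 cells the order of mean levels was NORAD at 26.3 FPKM, MALAT1 at 13.0, MIR155HG at 11.6, NEAT1 at 10.7, MIR17HG at 4.42 and PVT1 at 1.81 FPKM. Mut4 cells kept that order, with 27.7, 20.5, 11.4, 9.58, 6.32 and 1.44 FPKM. The order was the same within every single column, since the columns of a group are 1 profile times constants. Values overlapped across columns for MALAT1, MIR155HG and NEAT1 in ZHX2 cells and for MIR155HG and NEAT1 in Mut4 cells. That overlap follows from the constants and does not measure how sure the order is. Among long noncoding RNA rows past the filter, NORAD ranked 18 by mean level, MALAT1 35, MIR155HG 54, NEAT1 71, MIR17HG 153 and PVT1 631. Together the 6 genes summed to 76.9 FPKM in Mut4 cells and to 67.9 FPKM in ZHX2 cells, or 1.41% and 1.29% of the FPKM of all long noncoding RNA rows.

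MALAT1 was 1 of 6 genes at least 1.5-fold apart. Over all 12643 rows tested 5.10% were that far apart, 2.54% with the higher level in Mut4 cells and 2.56% with the lower, so 1 of 6 rests on a single gene. MALAT1 and MIR17HG were the 2 of 6 genes whose columns did not overlap between the groups, both higher in Mut4 cells; over all rows the share was 19.9%, of which 11.0% higher and 8.86% lower. Among rows typed as long noncoding RNA the shares were larger: of 1059 tested, 12.7% were at least 1.5-fold apart (9.16% higher and 3.59% lower in Mut4 cells), and the columns of 45.7% did not overlap (34.0% higher and 11.7% lower). Their median log2 ratio was 0.14, against 0.01 for 10385 protein-coding rows, and their median level was 1.90 FPKM against 6.81 FPKM. Among the 171 long noncoding RNA rows with a mean of at least 5 FPKM, a level that all of these genes but PVT1 reach, the median was 0.09, with 9.94% at least 1.5-fold higher and 7.02% lower. The 2 non-overlapping genes of 6 are thus near the share of that class.

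**Figure D1:**
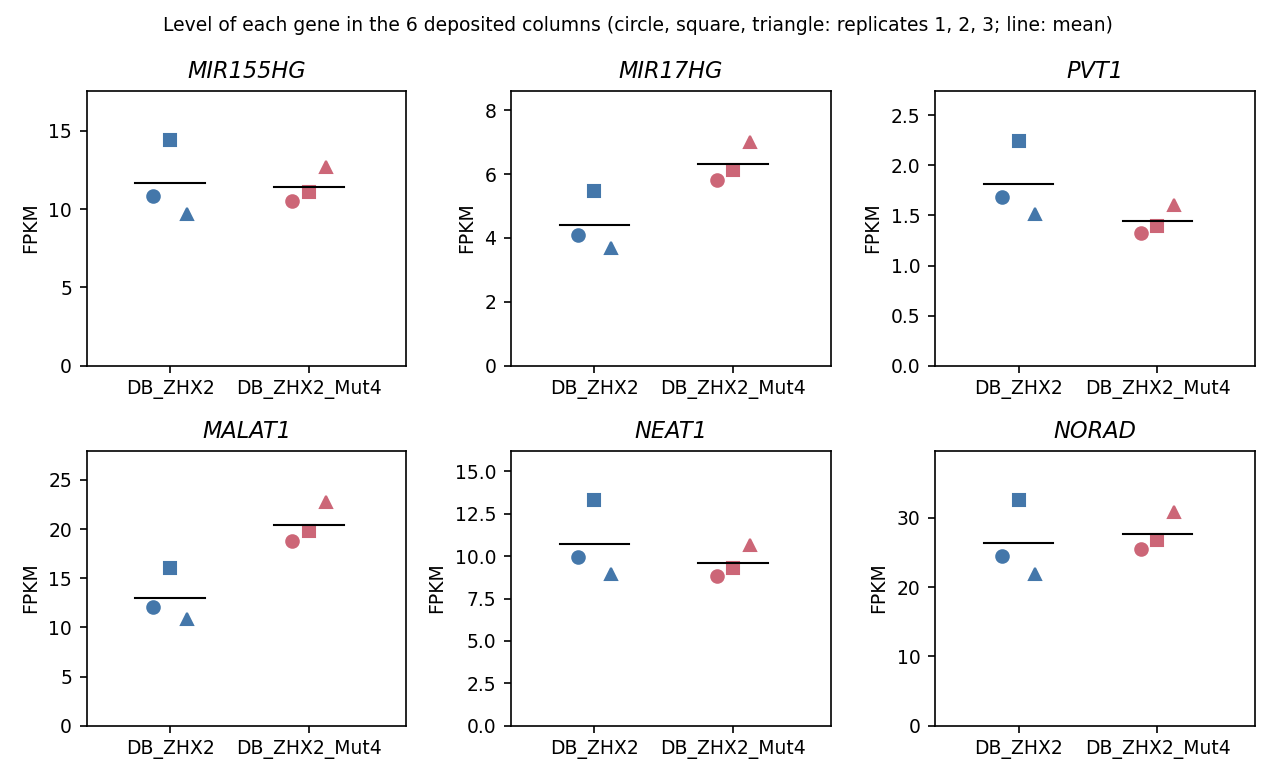
FPKM (vertical axis, from 0) of each of the 6 genes in the 3 columns of ZHX2 cells and the 3 of Mut4 cells, with the mean as a line; the columns of a group are 1 profile times constants, so their scatter is no replicate error. For MALAT1 (18.8 to 22.7 against 10.8 to 16.1) and MIR17HG (5.81 to 7.02 against 3.68 to 5.47) the groups do not overlap, and for the other 4 they do.

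**Figure D2:**
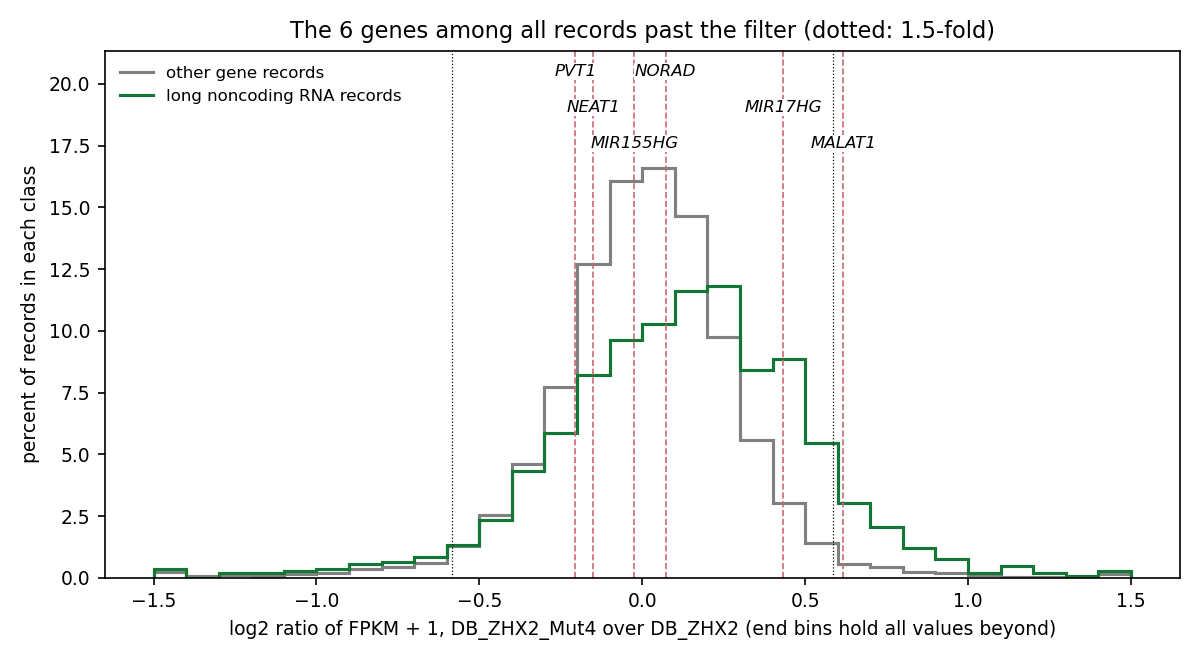
Percent of rows (vertical axis) by log2 ratio of FPKM + 1, Mut4 over ZHX2 cells (horizontal axis), for 1059 long noncoding RNA rows and for all other rows past the filter, with the 6 genes as dashed lines and 1.5-fold as dotted lines. The long noncoding RNA rows lie further to the right (median 0.14); MALAT1 (0.62) lies just past the dotted line, MIR17HG (0.43) short of it, and the other 4 between -0.21 and 0.07.

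MIR155HG (ENSG00000234883, chr21:25561909-25575168, plus strand) hardly differed in level between the cells. Its columns read 10.5, 11.1 and 12.7 FPKM in Mut4 and 10.8, 14.4 and 9.70 FPKM in ZHX2 cells. The groups overlap, and the lowest and the highest value both belong to ZHX2 cells. The log2 ratio was -0.02 (1.02-fold), and over the 9 pairs of columns it ran from -0.42 to 0.36. Of the rows tested, 42.3% had a lower ratio. In the authors' deposited table the q-value of MIR155HG was 0.947. How the deposited p- and q-values were obtained is not given, so those quoted here and below are no replicate check. The annotated 1600-base transcript contains both arms of miR-155, while the row of the hairpin itself, MIR155, was listed at 0.00366 and 0.00520 FPKM, below the filter. Poly(A)-selected libraries of fragmented RNA do not measure mature microRNAs, so neither value speaks of miR-155 itself.

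MIR17HG (ENSG00000215417, chr13:91347820-91354579, plus strand) was higher in Mut4 cells, short of 1.5-fold. Its columns read 5.81, 6.12 and 7.02 FPKM in Mut4 and 4.11, 5.47 and 3.68 FPKM in ZHX2 cells. Every Mut4 column lies above every ZHX2 column, with the closest pair at 5.81 and 5.47 FPKM. The log2 ratio was 0.43 (1.35-fold, or 1.43 times in FPKM without the pseudocount), between 0.07 and 0.78 over the column pairs. With each column left out in turn the log2 ratio ran from 0.34 to 0.58. Leaving out a column only rescales the whole profile of its group, so this is no replicate check. Of the long noncoding RNA rows, 203 had a higher ratio. In the authors' deposited table MIR17HG had a p-value of 0.0224 and a q-value of 0.178. Its spliced 931-base transcript holds none of the arms of the 6 hairpins, whereas the 2032-base and the 2845-base transcripts hold all of them, and the table does not say which was counted. The hairpin rows MIR18A, MIR19A, MIR20A, MIR19B1 and MIR92A1 all stood below 0.01 FPKM, and MIR17 was not analysed here.

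PVT1 (ENSG00000249859, chr8:127794533-128101253, plus strand) was the lowest of the 6 genes and had the lowest ratio. Its columns read 1.33, 1.39 and 1.60 FPKM in Mut4 and 1.68, 2.24 and 1.51 FPKM in ZHX2 cells. They overlap, since the third Mut4 column lies above the third ZHX2 column. The log2 ratio was -0.21 (1.15-fold), or -0.33 with no pseudocount, and 17.7% of rows had a lower one. In the authors' deposited table PVT1 had a q-value of 0.367. MYC, the growth regulator whose gene ends 53.1 kb before PVT1 on the same strand, lay on the other side at 37.8 FPKM in Mut4 cells and at 31.4 FPKM in ZHX2 cells (log2 ratio 0.26). Relative to MYC within the same profile, PVT1 stood at 0.0381 in Mut4 and 0.0578 in ZHX2 cells. Such a ratio does not depend on the column constants, and it was 0.659 times as large in Mut4 cells. Several small rows inside the PVT1 locus, among them MIR1205 at 0 and MIR1206, stayed below 0.02 FPKM.

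MALAT1 (ENSG00000251562, chr11:65497688-65506516, plus strand) showed the largest difference of the 6 genes. Its columns read 18.8, 19.8 and 22.7 FPKM in Mut4 and 12.1, 16.1 and 10.8 FPKM in ZHX2 cells. All 3 Mut4 columns lie above all 3 ZHX2 columns. The log2 ratio was 0.62 (1.53-fold), between 0.22 and 1.01 over the column pairs. Of 12643 rows 278 had a higher ratio, and of the long noncoding RNA rows 85. In the authors' deposited table MALAT1 had a p-value of 0.00222 and a q-value of 0.0398 and was not marked as significant. That mark does not follow a q under 0.05 alone, since CEBPB (q = 0.000182, log2 of ZHX2 over Mut4 0.97) was not marked either. Of all tested rows 5.50%, and of long noncoding RNA rows 11.5%, had a q under 0.05 there. The ratio fell short of 1.5-fold when ZHX2 replicate 1 (0.57), ZHX2 replicate 3 (0.51) or Mut4 replicate 3 (0.54) was left out, and stayed above 0 throughout. These steps rescale a whole profile and are no replicate check.

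The mature end of MALAT1 is made by RNase P and carries no poly(A) tail but a genomic A-rich tract, so oligo(dT) beads catch it differently from other RNAs; the part of this in the result was not tested. TALAM1, its antisense partner, was at 0.129 FPKM in Mut4 cells and at 0.155 FPKM in ZHX2 cells. The kit marks strand, but whether counting used it is not stated. Both values are far below those of MALAT1.

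NEAT1 (ENSG00000245532, chr11:65422774-65445540, plus strand), which ends 52.1 kb before MALAT1 begins, had a smaller ratio on the other side of 0. Its columns read 8.82, 9.28 and 10.6 FPKM in Mut4 and 9.98, 13.3 and 8.95 FPKM in ZHX2 cells. The groups overlap, with the highest value in ZHX2 and the lowest in Mut4 cells. The log2 ratio was -0.15 (1.11-fold), and its sign turned when ZHX2 replicate 2 was left out (0.02), which rescales the whole ZHX2 profile. In the authors' deposited table NEAT1 had a q-value of 0.714. Within a profile, MALAT1 stood at 2.14 times NEAT1 in Mut4 cells and 1.21 times in ZHX2 cells, so the ratio of these neighbours was 1.77 times as large in Mut4 cells. FRMD8, the nearest protein-coding gene before NEAT1, was at 11.6 FPKM in both cells. Only the short form of NEAT1 is polyadenylated, and the table gives no separate value for the long form, which builds paraspeckles.

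NORAD (ENSG00000260032, chr20:36045622-36050960, minus strand), the transcript with the 15 Pumilio motifs printed in part above, was the most abundant of the 6. Its columns read 25.5, 26.8 and 30.8 FPKM in Mut4 and 24.4, 32.5 and 21.9 FPKM in ZHX2 cells. The groups overlap, with all Mut4 columns inside the range of ZHX2 cells. The log2 ratio was 0.07 (1.05-fold), and the sign turned without ZHX2 replicate 3 (-0.04) or Mut4 replicate 3 (-0.0077). Here too, leaving out a column rescales the whole profile. In the authors' deposited table NORAD had a q-value of 0.945. Relative to NORAD in the same profile, MALAT1 stood at 0.739 in Mut4 and 0.494 in ZHX2 cells. MIR17HG over MIR155HG was 0.553 and 0.380, 1.46 times as large. MALAT1 over MIR17HG was 3.24 and 2.94, 1.10 times as large.

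**Figure D3:**
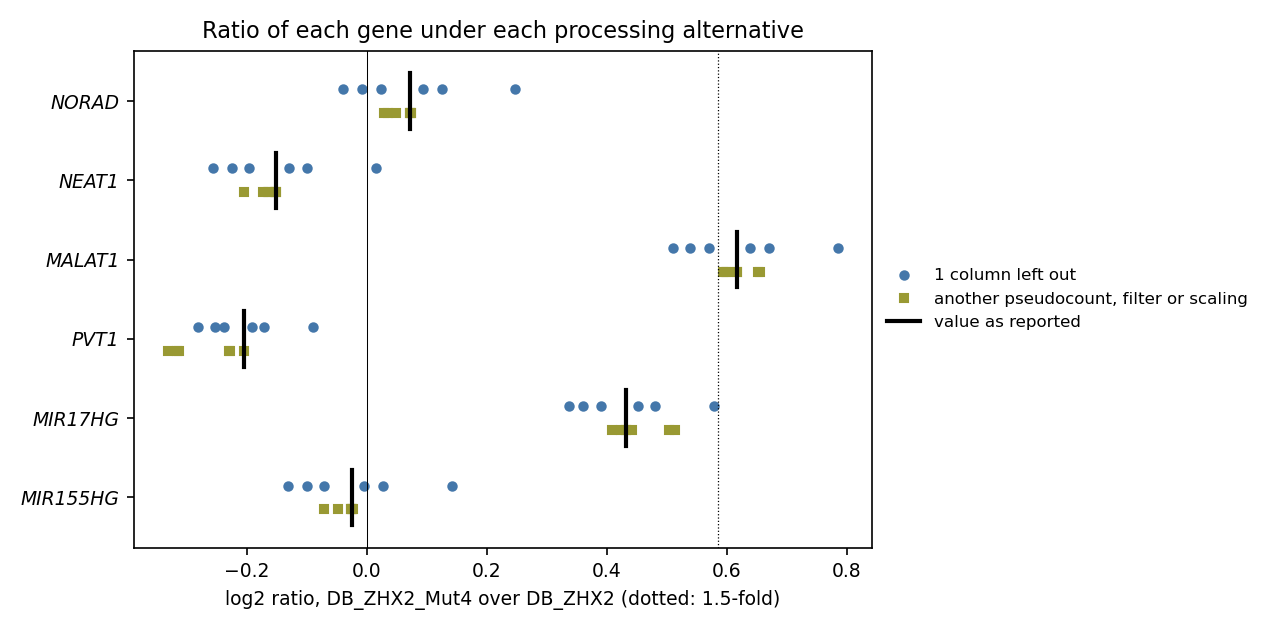
Log2 ratio, Mut4 over ZHX2 cells (horizontal axis), of each gene as reported (black line), with 1 column left out (circles) and with another pseudocount, filter or scaling (squares). MALAT1 (0.51 to 0.79) and MIR17HG (0.34 to 0.58) lie above 0 and PVT1 (-0.33 to -0.09) below 0 in every setting run, while MIR155HG, NEAT1 and NORAD have points on both sides.

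Most microRNA host genes, MIR155HG and MIR17HG counted among them, stood near 0. Of 44 listed, 20 passed the filter; 0 were at least 1.5-fold higher in Mut4 cells and 1 was lower, with a median log2 ratio of 0.04 against 0.02 over all rows. The lower one was MIR22HG, host of miR-22, at 1.53 FPKM in Mut4 cells and at 4.10 FPKM in ZHX2 cells (2.01-fold; q = 7.94e-08 in the authors' deposited table). MIR17HG had the highest ratio of the list. NFYC, an NF-Y subunit whose intron hosts miR-30 genes, was at 11.0 and 14.1 FPKM (-0.33), and MIR762HG at 0.986 and 1.49 FPKM (-0.33). Taking instead every row named as a MIR host gene, a choice made after values were seen, 12 of 51 passed, with a median of 0.19. Of these 12, 2 were at least 1.5-fold higher, MIR4453HG (1.74-fold) and MIR3667HG (1.51-fold), and 1 was lower, MIR22HG. Over all rows 2.54% were that much higher and 2.56% lower. Over long noncoding RNA rows the shares were 9.16% and 3.59%, with a median of 0.14. MIR142HG, host of the blood-cell microRNA miR-142, was at 12.9 and 8.95 FPKM.

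Of 20 broadly described long noncoding RNAs past the filter, 2, MALAT1 among them, were at least 1.5-fold higher in Mut4 cells and 1 lower, with a median of 0.01. Over all rows the shares were 2.54% and 2.56%. Over long noncoding RNA rows they were 9.16% and 3.59%, with a median of 0.14. LINC00926, a B-cell transcript, was at 29.5 FPKM in Mut4 cells and at 18.5 FPKM in ZHX2 cells (1.56-fold), next to MALAT1 in size. EPB41L4A-AS1 was lower, at 8.09 and 16.1 FPKM (1.88-fold). CRNDE had 3.58 and 2.73 FPKM (log2 ratio 0.30). PVT1 and NEAT1 thus belonged to the 9 members of this list below 0, and NORAD and MALAT1 to the 11 above it.

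Proteins that make or use microRNAs showed no member 1.5-fold apart in 22 measured (median 0.04). The largest ratios were those of HNRNPA1, which binds the miR-18a hairpin, at 318 and 227 FPKM (0.48), the DROSHA partner DDX17 (0.42), the exonuclease DIS3L2 (0.34) and AGO2, the slicing Argonaute, at 6.29 and 8.16 FPKM (-0.33). Paraspeckle proteins, the partners of NEAT1, had the highest median of the 10 lists apart from cell type markers, 0.21, with 22 of 28 rows above 0, against 53.8% of all rows, and 1 at least 1.5-fold lower. Without ZHX2 replicate 3 the median was 0.10, and without ZHX2 replicate 2 it was 0.38. That one was 1 of 2 rows named MATR3: it read 3.85 and 14.3 FPKM (-1.65), while the other read 75.8 and 53.3 FPKM (0.50). The rows may share reads, so the MATR3 level is uncertain. RBMX, an RNA-binding protein of both paraspeckles and NORAD, was at 52.0 and 40.9 FPKM (0.34).

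The 15 genes of MALAT1 3' processing, RNase P subunits and the triple helix factor METTL16 among them, had a median of -0.04 and 0 members 1.5-fold apart. RPP38 and RPP40, subunits of RNase P, had log2 ratios of -0.41 and -0.21, POP4 0.24 and METTL16 -0.18. NORAD binding proteins also had 0 of 9 that far apart (median -0.04), and PUM2 was at 30.0 and 33.3 FPKM. The largest ratios there were RBMX, PRPF19 (-0.26), the topoisomerase TOP1 (0.23) and the export adaptor ALYREF (0.17). Nuclear RNA decay genes had 0 of 22 (median -0.00), led by ZCCHC8 (-0.46), EXOSC6 (-0.35), EXOSC3 (0.28) and ZFC3H1 (0.27). Among described regulators of the 6 genes 0 of 24 were 1.5-fold apart, and 9 lay above 0, against 53.8% of all rows (median -0.10, or 0.07 without ZHX2 replicate 2). E2F1, which activates MIR17HG, was at 17.9 and 12.8 FPKM (0.46), BACH1 at 4.75 and 6.50 FPKM (-0.38), TCF3 at 0.28 and the AP-1 subunit JUNB at -0.27 on the log2 scale.

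**Figure D4:**
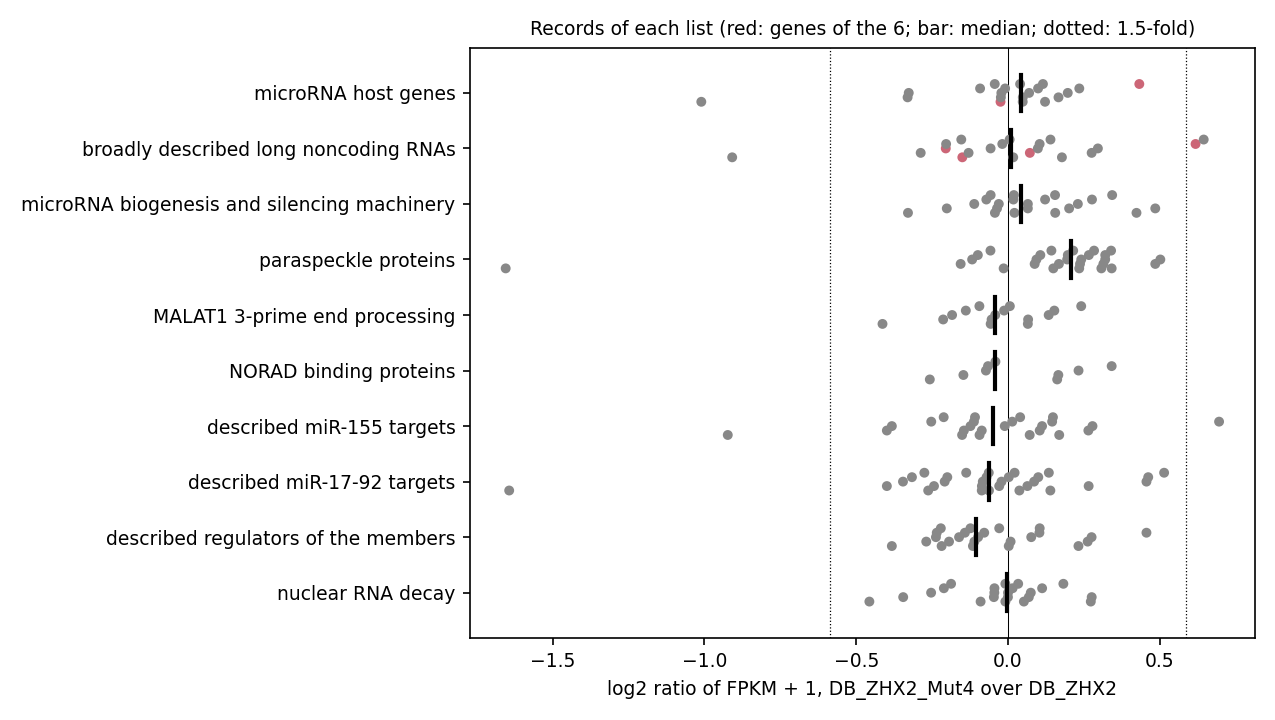
Log2 ratio, Mut4 over ZHX2 cells (horizontal axis), of each row past the filter in 10 gene lists, with medians as bars, 1.5-fold as dotted lines and genes of the 6 in red. Most rows lie inside 1.5-fold; the paraspeckle proteins have the highest median (0.21), and the lowest single values are a MATR3 row (-1.65), TXNIP (-1.64), MIR22HG (-1.01), CEBPB (-0.92) and EPB41L4A-AS1 (-0.91).

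Described targets of the microRNAs of these hosts were spread on both sides of 0. Of 24 miR-155 targets, 1 was at least 1.5-fold higher and 1 lower in Mut4 cells (median -0.05), against 2.54% and 2.56% of all rows. CEBPB, a myeloid transcription factor with 1 match to the miR-155 seed in its 3' UTR, was at 19.6 FPKM in Mut4 cells and at 38.1 FPKM in ZHX2 cells (1.90-fold lower). TP53INP1, a stress-induced p53 partner with 1 match, was at 7.94 and 4.52 FPKM (1.62-fold higher). BACH1, a repressor of haem oxygenase with 4 matches, and the repressor HBP1 with 1 had log2 ratios of -0.38 and -0.40. For the miR-17 and miR-20a seed TP53INP1 also held 2 matches and HBP1 held 1, and for the miR-19 seed 1 and 2. A seed match was present in 18 of the 24, with a median of -0.10.

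Of 30 described targets of the MIR17HG microRNAs, 0 were at least 1.5-fold higher and 1 was lower in Mut4 cells (median -0.06), against 2.54% and 2.56% of all rows. TXNIP, an inhibitor of thioredoxin and of glucose uptake with 2 matches to the AAAGUGC seed, was at 12.8 FPKM in Mut4 cells and at 42.2 FPKM in ZHX2 cells (3.12-fold lower; q = 9.75e-14 in the authors' deposited table). The next 3 ratios were on the other side: MYLIP, a ubiquitin ligase of the LDL receptor (14.4 and 9.75 FPKM), RBL2, a retinoblastoma family member (8.94 and 6.22 FPKM), and E2F1, with log2 ratios of 0.51, 0.46 and 0.46. RBL2 and E2F1 also had 2 matches each to the AAAGUGC seed. MYLIP had 1 match to the miR-19 seed, and MYLIP and RBL2 had 1 each to the miR-92a seed. A seed match was present in 27 of the 30, with a median of -0.06.

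Over 10352 protein-coding genes with an annotated 3' UTR, genes with a match to any of the seeds differed little from those without. Searching for AGCATTA, the reverse complement of the miR-155 seed, gave 1199 genes, of which 45.7% were higher in Mut4 cells, against 52.9% of the 9153 without. For GCACTTT (miR-17 and miR-20a) the shares were 48.9% of 2592 and 53.1% of 7760 genes, for GCACCTT (miR-18a) 49.9% and 52.3%, for TTTGCAC (miR-19) 47.5% and 52.9%, and for GTGCAAT (miR-92a) 46.7% and 52.9%. The medians with and without were -0.02 and 0.02 for miR-155 and −0.00 and 0.02 for miR-17 and miR-20a. The Pumilio motif of NORAD, added after values were seen, gave 46.3% of 3044 against 54.5% of 7308 genes.

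UTR length moved with these sets: the median UTR was 3307 bases with a miR-155 match and 1167 without. Genes with UTRs of 2 kb or longer had a median log2 ratio of -0.02 (3670 genes), and those with shorter ones 0.03 (6682 genes). Among the UTRs of 2 kb or longer, the median with a match minus that without was -0.0092 for miR-155, 0.0030 for miR-17 and miR-20a, 0.00076 for miR-92a and -0.018 for the Pumilio motif. Among the shorter UTRs the same differences were -0.0509, -0.0239, -0.0552 and -0.0470. For miR-18a the differences were -0.0021 among the longer and -0.0094 among the shorter UTRs, and for miR-19 -0.0058 and -0.0272. Within each length class, UTRs with a miR-155 match were still longer, with medians of 4190 against 3133 bases and 1347 against 711 bases. The part of length in the differences was not tested further.

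**Figure D5:**
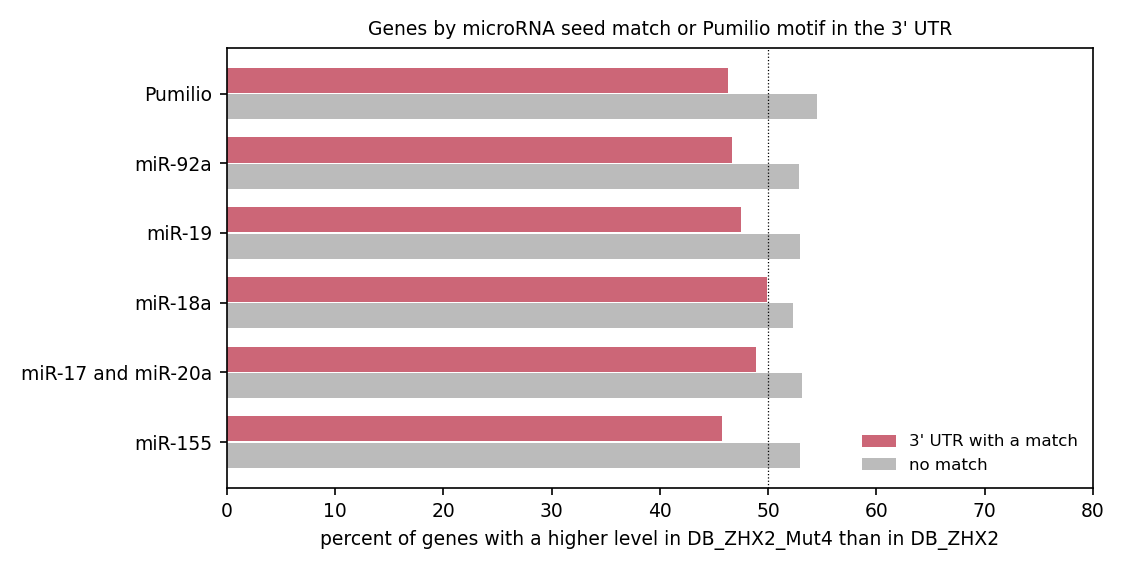
Percent of genes with a higher level in Mut4 than in ZHX2 cells (horizontal axis, from 0; dotted line at 50%) for genes with (red) and without (grey) a seed match or Pumilio motif in the 3' UTR. All 6 red bars, from 45.7% for miR-155 to 49.9% for miR-18a, are shorter than their grey partners, which run from 52.3% to 54.5%; UTR length was not held equal.

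Of the nearest protein-coding genes around the other loci, MRPL39, a mitochondrial ribosomal protein 10.5 kb after MIR155HG, was at 41.9 FPKM in Mut4 cells and at 38.7 FPKM in ZHX2 cells (0.11). SLITRK5 and GPC5 beside MIR17HG and EPB41L1 beside NORAD were below the filter, and GSDMC beyond PVT1 was listed at 0. NCAM2 and CNBD2 were not analysed here.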

How the data were processed

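RNA was extracted with TRIzol, selected for poly(A) and made into dUTP libraries, per the labels' protocols. Of tools, edgeR, StringTie, HISAT2 and fastp are listed with GRCh38, per the submitters' processing notes; versions and settings are not given in the sources used here. The authors deposited 1 table with FPKM per sample and, per the file headers, a linear ratio (fold), the log2 of that ratio, and q- and p-values. The deposited ratio is ZHX2 replicate 1 over Mut4 replicate 1 and was used only to describe the authors' table, as were the deposited p-values and the deposited log2 values.

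The FPKM columns of a group were constant multiples of one another within a relative tolerance of 1e-06, at 23808 of 23808 genes in Mut4 and 23368 of 23370 in ZHX2 cells. No replicate test, standard deviation or p-value was therefore computed. The table holds no counts, so the depth and its precision are unknown. Ratios used a pseudocount of 1; 12646 rows passed the filter (at least 1 FPKM in at least 3 columns), and 3 rows whose FPKM and deposited ratio disagree (ATG5, ACSL1 and SLC7A11) were left out. In 15 symbols the letters "up" had become "down"; these were restored by gene ID.

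Gene coordinates, transcripts and UTRs (longest per gene, from the stop codon on) are from GENCODE v29 on GRCh38, and microRNAs and promoters from RefSeq on GRCh38.p14. Members, lists and thresholds were chosen with earlier results of these data known. Genes named are the 6, up to 4 per list by size of ratio, and the nearest protein-coding neighbours, with some items not reported here; PUM2, MYC, the rows inside the loci and the MIR host genes outside the list were named after their values were seen. Alternatives were a pseudocount of 0.1, none, no filter, a filter of 5 FPKM, scaling to a common sum, centring, quantile normalization, a seed match followed by A, the mismatched rows kept, and each column left out. The steps were tested on simulated data with changes larger than those of the 6 genes. That run does not show how well smaller changes, or changes of genes near the filter, are recovered. Python 3.11.15, numpy 2.4.6 and pandas 2.3.3 were used.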

Additional observations from a re-analysis of the deposited data

How the results depend on the processing

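No paired analysis was possible because each group holds a single profile, which leaves no pairs to test. Over 13 alternatives (12 for PVT1, which fails a filter of 5 FPKM), log2 ratios ran from 0.51 to 0.79 for MALAT1, 0.34 to 0.58 for MIR17HG, -0.33 to -0.09 for PVT1, -0.13 to 0.14 for MIR155HG, -0.26 to 0.02 for NEAT1 and -0.04 to 0.25 for NORAD. Without a column the whole profile is rescaled: the median of all genes moved to 0.17 without ZHX2 replicate 2 and to -0.07 without ZHX2 replicate 3. Rows at least 1.5-fold higher and lower in Mut4 cells, 321 and 324 as reported, then ranged over 222 to 720 and 202 to 502. Without ZHX2 replicate 2 there were 720 higher and 202 lower. Those 2-fold higher and lower, 56 and 90 with all columns, ranged over 48 to 89 and 65 to 120. List rows at least 1.5-fold higher, with MALAT1 not counted, were 2 with all columns and ranged over 1 to 8. With a pseudocount of 0.1 the 4 counts over all rows were 691, 561, 201 and 187. With a filter of 5 FPKM, which tests fewer genes, they were 128, 171, 22 and 52. With columns scaled to a common sum they were 470, 575, 119 and 170. That sum was 1000000, against column sums of 258080 to 383426, so the pseudocount of 1 weighs less there. Centring on the median of all genes gave 287, 356, 54 and 98. Medians of genes with a seed match minus those without kept their sign or reached 0: with no filter they were -0.0034 (miR-155), -4.99e-05 (miR-17 and miR-20a), 0 (miR-18a), -0.0012 (miR-19), -0.0021 (miR-92a) and -0.0065 (Pumilio), since genes at or near 0 FPKM enter. With the filter of 5 FPKM they were -0.0558 (miR-155), -0.0338 (miR-17 and miR-20a) and -0.0466 (miR-92a), and for a match followed by A -0.0270 (miR-155), -0.0332 (miR-17 and miR-20a) and -0.00095 (miR-18a); the cause was not tested. Left-out columns turned the signs of MIR155HG (0.14) and NEAT1 (0.02) without ZHX2 replicate 2, of MIR155HG without Mut4 replicate 1 (0.03), and of NORAD without ZHX2 replicate 3 (-0.04) or Mut4 replicate 3 (-0.0077). Without ZHX2 replicate 2 all 10 list medians lay above 0, between 0.07 (regulators) and 0.38 (paraspeckle proteins), and without ZHX2 replicate 3 all lay below 0, from -0.21 (regulators) to -0.06 (microRNA machinery), except the paraspeckle proteins (0.10). The limits set by depth are unknown, since the table holds no counts.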

Other observations

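Host genes of small nucleolar RNAs, which guide the modification of ribosomal RNA, hold the most abundant long noncoding RNA rows with a symbol, and were picked after values were seen. All 23 rows named SNHG with a number or GAS5 passed the filter; 2 were lower by 1.5-fold or more in Mut4 cells, 0 higher, and 15 lay below 0, with a median log2 ratio of -0.13. Of all rows 2.56%, and of long noncoding RNA rows 3.59%, were that much lower, and 53.8% and 64.8% lay above 0. SNHG32 was at 82.4 FPKM in Mut4 cells and at 201 FPKM in ZHX2 cells (2.42-fold lower), and SNHG1 at 78.2 and 136 FPKM (1.73-fold lower). GAS5, a host that accumulates when growth stops, was at 114 and 163 FPKM, and SNHG3 lay on the other side at 40.3 and 27.7 FPKM. These levels exceed that of NORAD, the highest of the 6 genes described above.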
